A study of Mus musculus with 3 samples.

Results

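The Ifit genes of mouse chromosome 19 were taken as the 6 annotated genes with the symbols Ifit1, Ifit1bl1, Ifit1bl2, Ifit2, Ifit3 and Ifit3b, of 55536 annotated genes in all. They were chosen by symbol, with earlier results of these data known. Chromatin-associated RNA was sequenced from macrophages (BMDM) of strain C57BL/6J after removal of ribosomal RNA. A first dose of lipid A (100 ng/ml, 12 h), the TLR4 ligand within lipopolysaccharide, was followed by a washout of 12 h and a second dose (100 ng/ml, 30 min). This was the single group, with 3 replicates under the same donor identifier. Whether they are separate animals or cultures is not stated, and the labels give no age or sex of the animals. Cells without lipid A were not analysed here, so no level below is a response to it.

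IFIT proteins are built of tetratricopeptide repeats and are induced by type I interferon. Ifit1 binds viral RNA whose cap lacks 2′-O methylation and blocks its translation, and Ifit2 and Ifit3 form complexes with one another and with other IFIT proteins. In macrophages, TLR4 signalling through the adaptor TRIF leads to interferon-beta, whose receptor activates the transcription factor complex ISGF3. ISGF3 binds interferon-stimulated response elements in the promoters of its target genes.

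The core of such an element, GAAANNGAAA, was searched on both strands of RefSeq promoter windows of build GRCm38.p6 (mm10), which run from 250 bases before to 50 bases after each start site. All 6 genes had a window. At least 1 match was found for 5 of the 6 Ifit genes, and 3.99% of all 27025 genes with a window had one. The stretches upstream of the start sites are shown because they hold the matches and let the copies be compared. Each is printed in the direction of its gene, and capitals mark the matches, each of which lies on the opposite strand.
Ifit1: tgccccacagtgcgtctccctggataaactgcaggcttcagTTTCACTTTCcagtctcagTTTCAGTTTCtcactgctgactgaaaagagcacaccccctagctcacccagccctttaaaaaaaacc
Ifit3: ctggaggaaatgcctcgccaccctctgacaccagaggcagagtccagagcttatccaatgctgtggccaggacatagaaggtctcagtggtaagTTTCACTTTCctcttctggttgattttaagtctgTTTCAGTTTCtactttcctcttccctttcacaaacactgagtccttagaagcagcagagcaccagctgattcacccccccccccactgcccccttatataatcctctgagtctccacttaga
Ifit3b: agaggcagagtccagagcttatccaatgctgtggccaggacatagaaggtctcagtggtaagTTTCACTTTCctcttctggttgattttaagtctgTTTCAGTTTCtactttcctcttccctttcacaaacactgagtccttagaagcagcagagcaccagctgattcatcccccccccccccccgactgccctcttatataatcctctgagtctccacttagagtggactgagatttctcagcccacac
Ifit1bl1: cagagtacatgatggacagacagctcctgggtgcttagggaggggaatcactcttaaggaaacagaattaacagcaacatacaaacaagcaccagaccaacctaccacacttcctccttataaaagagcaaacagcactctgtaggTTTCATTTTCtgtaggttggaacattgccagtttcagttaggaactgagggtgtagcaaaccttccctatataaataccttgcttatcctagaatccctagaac
Ifit2: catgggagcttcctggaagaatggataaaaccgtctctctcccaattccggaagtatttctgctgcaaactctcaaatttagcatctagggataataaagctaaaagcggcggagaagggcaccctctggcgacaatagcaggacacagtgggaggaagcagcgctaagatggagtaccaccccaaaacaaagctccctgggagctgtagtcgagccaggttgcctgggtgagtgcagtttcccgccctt

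The Ifit1 stretch is the plus strand of chr19:34640744-34640870, the 127 bases between the annotated starts of Ifit1 and Ifit1bl2, which are transcribed away from each other. The Ifit3 stretch is chr19:34583279-34583528 and the Ifit3b stretch chr19:34607707-34607956, both on the plus strand. The Ifit1bl1 stretch is chr19:34601969-34602218 on the minus strand, and the Ifit2 stretch is chr19:34550444-34550693 on the plus strand.

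Ifit1, Ifit3 and Ifit3b each held the same 2 matches, which read GAAAGTGAAA and GAAACTGAAA on the strand of the motif. The matches lay 9 bases apart at Ifit1 and 24 bases apart at Ifit3 and at Ifit3b. The windows of Ifit3 and Ifit3b were 94.2% identical over 274 aligned positions. Ifit1bl2 had the Ifit1 matches in its upstream window, since both windows cover the same bases, and none in its window at a second start. Ifit1bl1 had 1 match, GAAAATGAAA, in each of its 2 windows. Neither window of Ifit2 held these letters. Bases outside the windows and spellings other than this core were not searched. With 1 more C required at the 3′ end of the motif, the same count of 5 genes had a match, against 0.944% of all genes. A match is a description of the sequence and not a measured binding site.

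The 6 genes span chr19:34550694-34650009 of mm10, 99316 bases, with 4 genes on the plus strand and 2, Ifit1bl1 and Ifit1bl2, on the minus strand. From low to high coordinates the order is Ifit2, Ifit3, Ifit1bl1, Ifit3b, Ifit1bl2 and Ifit1. Their 8 annotated transcripts are all protein-coding. In each main transcript the last exon holds most of the coding sequence, 99.6% of it in Ifit1, Ifit2, Ifit3 and Ifit3b and 97.7% in Ifit1bl1 and Ifit1bl2.

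**Figure D1:**
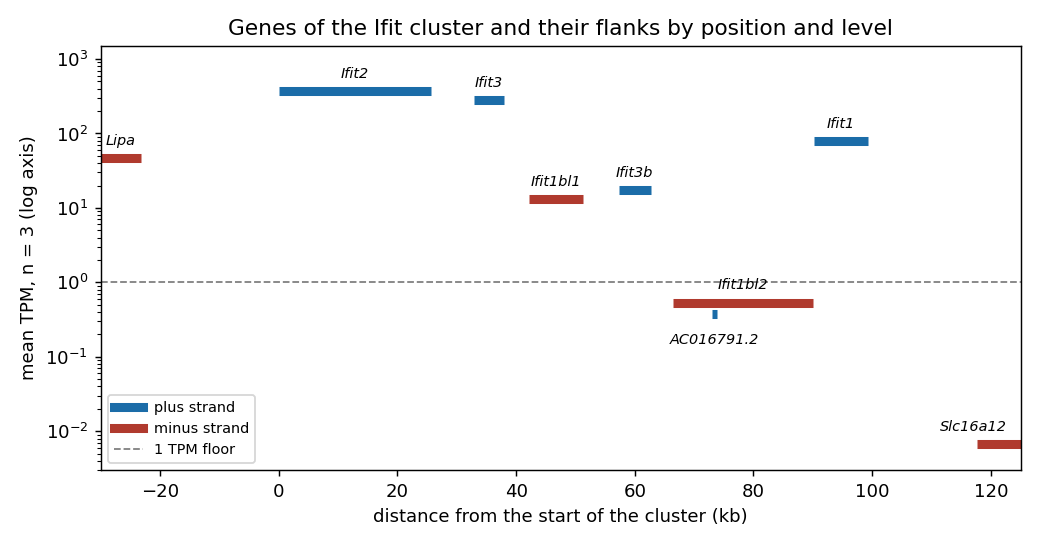
Genes by distance from the start of the cluster in kb (x axis) and mean TPM of 3 libraries on a log axis (y axis), with colour for strand and the outer genes clipped at the plot edges. Ifit2 and Ifit3 sit highest, at 368 and 278 TPM, while Ifit1bl2, which lies between Ifit3b and Ifit1, is below the dashed line at 1 TPM.

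Levels inside the cluster differed widely over short distances. Ifit1bl2 at 0.537 ± 0.085 TPM starts next to Ifit1 at 79.3 ± 21.9 TPM (SD, n = 3 each). TPM is a share of all transcripts corrected for the length of the spliced transcript, which puts the genes of a table on a common scale. Introns are not part of that length. They total 21892 bases in Ifit2-201, 20328 in Ifit1bl2-201 and 3456 in Ifit3-201. The part of unspliced RNA in these levels, and so in the differences between genes, was not tested. The levels are those of chromatin-associated RNA and not of total RNA. The cluster also holds AC016791.2, a processed pseudogene within Ifit1bl2, at 0.377 ± 0.24 TPM. The nearest coding genes outside were Lipa, which encodes lysosomal acid lipase, at 47.2 ± 10.7 TPM, and Slc16a12, a monocarboxylate transporter gene, at 0.00667 ± 0.0115 TPM (SD, n = 3 each).

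Ifit2, whose human protein is also known as ISG54, had the highest mean of the family. It had 517.26, 306.93 and 280.52 TPM in replicates 1, 2 and 3. Replicate 1 was the highest and the other libraries were close to each other. Its mean log2(TPM + 0.1) exceeded that of a 1 TPM floor by 8.33 (SE 0.24, adjusted p = 3.94e-05 by limma).

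Ifit3, the partner of Ifit2, had 320.51, 284.24 and 228.00 TPM in replicates 1, 2 and 3. Its libraries differed least among the 5 genes above the floor. On the same log2 scale it exceeded the floor by 7.97 (SE 0.17, adjusted p = 3.94e-05 by limma).

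Ifit1, a cap-binding member, had 104.52, 68.06 and 65.30 TPM. Replicate 1 was again the highest, with the other libraries near each other. It exceeded the floor by 6.14 log2 units (SE 0.21, adjusted p = 4.37e-05 by limma).

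The other members were lower. Ifit3b, a near copy of Ifit3, had 23.53, 18.85 and 10.49 TPM and exceeded the floor by 3.93 log2 units (SE 0.28, adjusted p = 0.00027 by limma). Ifit1bl1, an Ifit1-like gene, had 24.39, 10.31 and 5.29 TPM and exceeded it by 3.34 log2 units (SE 0.47, adjusted p = 0.00258 by limma). For both, replicate 1 was highest and replicate 3 lowest. Ifit1bl1 did not pass at a floor of 5 TPM (adjusted p = 0.123 by limma) or with every annotated gene in the fit (adjusted p = 0.0781 by limma), and its adjusted p was 0.00048 to 0.0211 under the other alternatives.

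Ifit1bl2, the other Ifit1-like gene, had 0.62, 0.45 and 0.54 TPM, from 21.05, 22.03 and 25.04 expected counts. All 3 libraries were below 1 TPM, and the mean was -0.80 log2 units from the floor (SE 0.16, limma adjusted p = 1). In total 5 of 6 Ifit genes passed, where 51.1% of the 24180 genes tested and 61.8% of protein-coding genes did. The median of the mean levels was 48.5 TPM for the Ifit genes, 2.02 TPM for all genes tested and 4.17 TPM for the protein-coding ones.

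**Figure D2:**
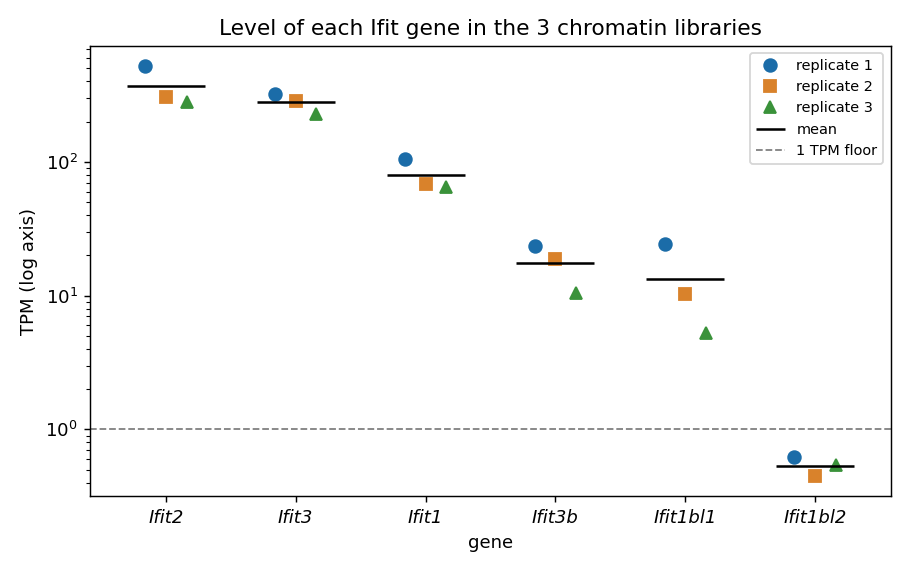
TPM on a log axis (y axis) of each Ifit gene (x axis) in the 3 libraries, with points for replicates, a bar for the mean and a dashed line at 1 TPM. Replicate 1 is the highest point for all 6 genes, and Ifit1bl2 is the one gene with every point under the line.

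The order of the means was Ifit2, Ifit3, Ifit1, Ifit3b, Ifit1bl1 and Ifit1bl2. Ifit2 exceeded Ifit3 by 0.37 log2 units (SD 0.30), in 3 of 3 libraries. Ifit3 exceeded Ifit1 by 1.83 (SD 0.22) and Ifit1 exceeded Ifit3b by 2.21 log2 units (SD 0.39), both in 3 of 3 libraries. Ifit3b and Ifit1bl1 differed by 0.60 log2 units (SD 0.56) and kept this order in 2 of 3 libraries in the gene table. In the second table they differed by 0.99 log2 units (SD 0.71), with Ifit3b higher in 3 of 3 libraries. Ifit1bl1 exceeded Ifit1bl2 by 4.13 log2 units (SD 1.01) in 3 of 3 libraries, by 2.36 (SD 0.81) in the second table and by 2.99 with a pseudocount of 1. An exact sign-flip permutation test over 3 libraries, two-sided, cannot give less than p = 0.25, which is why the sizes and their SD are given.

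Some of these genes share long stretches of sequence. The coding sequences of Ifit3 and Ifit3b were 99.1% identical, with 1198 of 1209 bases the same. Of the 100-base stretches of the main transcript, 31.7% for Ifit3 and 27.4% for Ifit3b were also present in the other gene. For Ifit2 the share found in any other gene was 0%, for Ifit1 3.29%, for Ifit1bl2 2.91% and for Ifit1bl1 0.524%. With 31-base stretches these shares were larger, at 19.2% for Ifit1bl1, 17.3% for Ifit1bl2 and 11% for Ifit1. They were 61.8% for Ifit3 and 55.5% for Ifit3b, and 0% again for Ifit2. Ifit1bl1 and Ifit1bl2 were 87.4% identical in coding sequence, and they were 74.6% and 74.2% identical to Ifit1.

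The authors also deposited a second quantification by transcript, which was summed per gene. There the Ifit3 to Ifit3b ratio was 12.3 (geometric mean), against 16.5 in the gene table. Ifit1bl2 had 1.95, 1.45 and 1.17 TPM in the second table and passed the floor in it (0.54 log2 units, limma adjusted p = 0.0435), while its adjusted p was 1 under each of the other alternatives. The Ifit1 to Ifit1bl2 ratio was 39.3 there, against 146 in the gene table. The level of Ifit1bl2 relative to 1 TPM thus depends on the table. Within the gene table, the deposited posterior SD of the count was 9.09, 9.59 and 7.31 for Ifit3b, out of 453.04, 521.80 and 274.00 expected counts, and 0.19, 0.18 and 0.17 for Ifit1bl2. For both genes the difference in counts between the tables was larger than this SD. Counts in the second table were higher in general, by a median of 1.71 times over 11277 protein-coding genes with a mean of at least 10 expected counts. They were 4.61 times higher for Ifit1bl2, a ratio that 7.01% of those genes exceeded, and 1.58 times higher for Ifit3b.

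**Figure D3:**
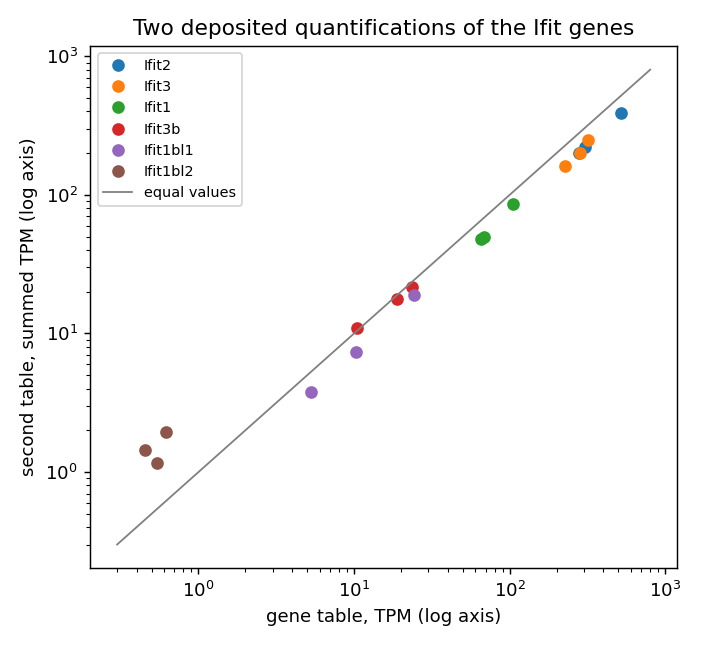
TPM of each Ifit gene and library in the gene table (x axis) and in the second table summed per gene (y axis), both on log axes, with a line of equal values. Ifit1bl2 lies above the line, at 1.95, 1.45 and 1.17 TPM in the second table, and Ifit1, Ifit1bl1, Ifit2 and Ifit3 lie below it.

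Ifit1bl1 has 2 annotated transcripts of almost the same length, which differ at their first exon and share the last. In the gene-table quantification Ifit1bl1-202 took 24.6%, 79.3% and 93.7% of the gene's expected counts in replicates 1, 2 and 3, and Ifit1bl1-201 took 75.4%, 20.7% and 6.31%. In this quantification the libraries thus differ in which transcript has the larger share. The deposited posterior SD of these counts was 99.86, 55.08 and 39.70 counts, out of 521.00, 318.00 and 154.00 for the gene. In the second table Ifit1bl1-202 took 63.3%, 58.7% and 100%, the larger share in each library, so the difference depends on the table. Nearly all counts of Ifit2 were on Ifit2-201, with 0.0136% on Ifit2-202, and the other members have 1 transcript each.

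Ifit1bl1 also varied most between libraries. Its biological coefficient of variation, the spread between libraries beyond counting noise in edgeR, was 0.44, and 99.3% of 14140 genes had a lower one. It was 0.272 without replicate 1, 0.371 without replicate 2 and 0.293 without replicate 3. The other Ifit genes lay between 0.201 for Ifit3 and 0.274 for Ifit3b, beside a median of 0.21 over all genes. Among the 500 genes of most similar CPM, 95.6% had a lower value than Ifit3b, 88.8% than Ifit2, 86% than Ifit1, 72.8% than Ifit3 and 22.2% than Ifit1bl2. Replicate 1 started from 1 µg of RNA, replicate 2 from 250 ng and replicate 3 from 500 ng, and input and replicate cannot be told apart.

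The family had its highest level in replicate 1. After TMM scaling, the median deviation from the gene mean over the 6 genes was 0.50, -0.17 and -0.30 log2 units in replicates 1, 2 and 3. The same median was -0.04, 0.03 and 0.02 over 10850 protein-coding genes and 0.25, -0.15 and -0.12 over 19 other interferon-stimulated genes. Replicate 1 also had the lowest total count and, at 1.04%, the largest share of counts outside genes, and their part in the result was not tested. In bulk RNA, a smaller number of expressing cells and less RNA per cell cannot be told apart. The 5 coding genes outside the family, of 5228 with a mean of at least 10 TPM, whose centred log2(TPM + 0.1) over the 3 libraries was closest to the mean of the 5 Ifit genes above the floor were Pde6b, Slfn9, Mllt3, Gm6904 and 3110001I22Rik, at distances of 0.0481 to 0.108. Pde6b encodes a phosphodiesterase subunit of rod photoreceptors and Mllt3 a chromatin reader. The median distance over those 5228 genes was 0.808, and the 5 Ifit genes were themselves 0.234 (Ifit2) to 0.783 (Ifit1bl1) from their mean.

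**Figure D4:**
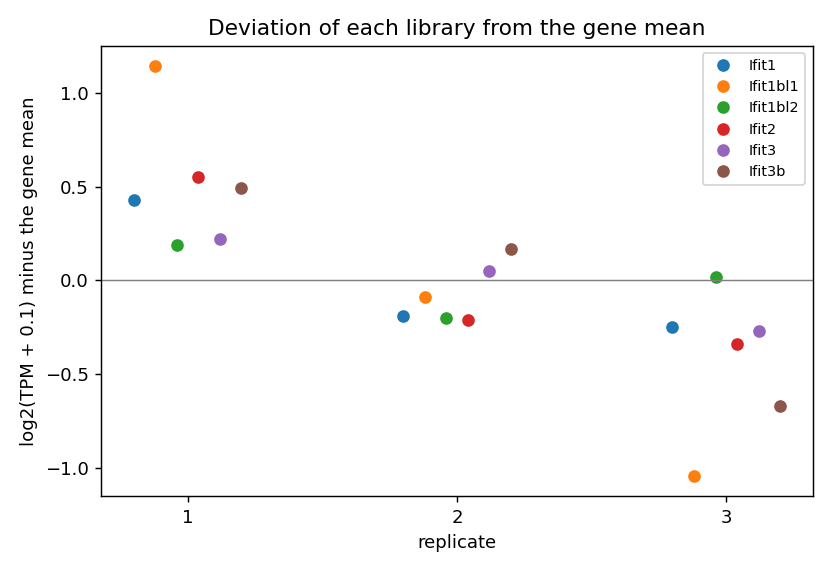
Deviation of log2(TPM + 0.1) from the gene's mean (y axis) in each replicate (x axis), one colour per Ifit gene. All 6 genes are above their mean in replicate 1, and Ifit1bl1 spans the widest range, at 1.14, -0.09 and -1.04.

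Genes known to act upstream of the family were also measured. Over all genes tested 51.1% passed the 1 TPM floor, and 61.8% of protein-coding genes did. Of the receptor and ISGF3 list 9 of 9 passed, with a median of 70.6 TPM. Among them, Stat2, which encodes a subunit of ISGF3, had 570.4 ± 96.7 TPM and the receptor kinase gene Tyk2 94.6 ± 9.66 TPM (SD, n = 3 each). From TLR4 to interferon-beta, 10 of 11 passed, with a median of 15.1 TPM. The kinase gene Ikbke had 1154 ± 100.0 TPM, the transcription factor gene Irf7 366.9 ± 60.4 TPM and the kinase gene Tbk1 175.6 ± 25.2 TPM (SD, n = 3 each). Ifnb1, the interferon-beta gene, had 1.73, 0.78 and 0.93 TPM and did not pass (limma adjusted p = 0.63).

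Among other interferon-stimulated genes 20 of 20 passed, where 51.1% of all genes tested did, with a median of 231.3 TPM. Mx1, a gene of the dynamin-like GTPase family, had 1880 ± 585.7 TPM, Rsad2, which encodes viperin, 669.0 ± 309.4 TPM and Oasl2 629.2 ± 75.8 TPM (SD, n = 3 each). The motif was present for 11 of the 16 of these genes that had a promoter window, where 3.99% of all genes held it. It was present for 2 of 7 genes of the receptor and ISGF3 list, 0 of 7 from TLR4 to interferon-beta, 0 of 5 cap-modifying enzymes and 1 of 10 eIF3 subunits.

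Lists tied to the targets of IFIT proteins had lower medians than the other interferon-stimulated genes and the receptor and ISGF3 list. The median from TLR4 to interferon-beta, 15.1 TPM, lay between those of the cap-modifying enzymes and the eIF3 subunits. Of the cap-modifying enzymes 5 of 6 passed, where 51.1% of all genes tested did, with a median of 20.8 TPM. Cmtr1, which methylates the 2′-O position that Ifit1 reads, had 102.5 ± 1.83 TPM, the capping enzyme gene Rngtt 40.5 ± 7.52 TPM and the cap methyltransferase gene Rnmt 24.3 ± 2.26 TPM (SD, n = 3 each). Cmtr2, the second 2′-O methyltransferase gene, had 0.25, 0.52 and 0.18 TPM and did not pass (limma adjusted p = 1). Of the subunits of eIF3, the translation initiation factor that IFIT proteins contact, 13 of 14 passed, with a median of 11.6 TPM. Eif3a had 98.8 ± 5.48 TPM, Eif3b 32 ± 6.15 TPM and Eif3c 28.9 ± 4.19 TPM (SD, n = 3 each). Eif3j2, a near copy of Eif3j1, had 0.46, 0.8 and 0.86 TPM and did not pass (limma adjusted p = 1). In the second table it had 2.39, 2.1 and 2.18 TPM and passed (limma adjusted p = 0.00146), so that 14 of 14 subunits did there.

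**Figure D5:**
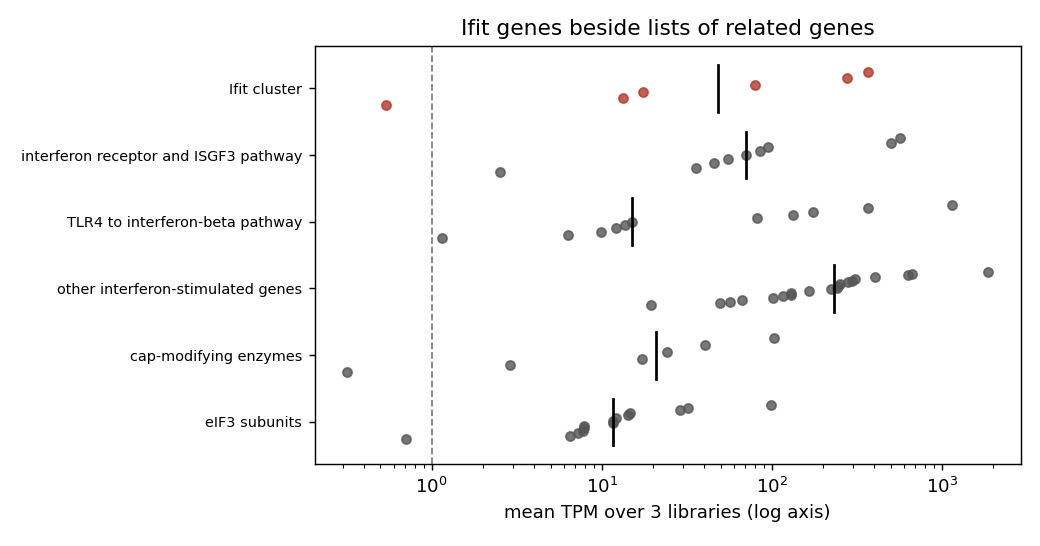
Mean TPM over 3 libraries on a log axis (x axis) of the Ifit genes and of 5 lists of related genes (rows), with a point per gene, a black bar at the median and a dashed line at 1 TPM. The median of the Ifit genes, 48.5 TPM, lies below that of the other interferon-stimulated genes, 231.3 TPM, and above that of the eIF3 subunits, 11.6 TPM.

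The libraries held 12532722, 18395358 and 18237730 expected counts in replicates 1, 2 and 3. Macrophage markers were present, with 6 of 6 above the floor and summed levels of 888.6 to 979.1 TPM. None of 6 lymphoid, 6 granulocyte and 6 stromal, endothelial and epithelial markers passed, nor did 4 of 5 plasmacytoid dendritic cell markers, the exception being Ccr9 at 3.81 ± 0.459 TPM (SD, n = 3). These calls are from the gene table. In the second table, where 57.5% of 34376 genes tested passed, the passing genes included the lymphoid marker Cd3d at 12.7, 15.6 and 17.9 TPM in replicates 1, 2 and 3 and the endothelial marker Pecam1 at 9.56, 10.5 and 9.72 TPM. Siglech, Col1a1 and Mpo also passed there, with means of 2.01, 1.8 and 1.74 TPM. These 5 markers were named after their values were seen, and their part in the Ifit levels was not tested. The labels give 1 donor identifier for the 3 replicates, so the p-values measure the spread between these samples, which may be technical.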

How the data were processed

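Ribosome-depleted RNA of the chromatin fraction was sequenced in 3 libraries. The deposited gene table holds expected counts and TPM, which the authors estimated from transcriptome alignments to mm10 with annotation M21, and a second deposited transcript table holds estimated counts and TPM quantified directly from reads, both per the deposited notes and file headers. Which programs and versions were used, and whether counting used strand, is not given in the sources used here. Depth was 12532722 to 18395358 expected counts, of which 0.401% to 1.04% lay outside annotated genes.

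The members and lists were chosen with earlier results of these data known. Named were the members, the 3 highest genes of each of the 5 pathway lists and those of them that did not pass, the genes within and beside the cluster, and the 5 genes closest in profile, and 1 gene that this rule names is not reported here. Levels were tested with limma 3.58.1, an intercept-only fit of log2(TPM + 0.1) with default eBayes, one-sided against 1 TPM, over the 24180 genes above 0 TPM in any library, calling Benjamini-Hochberg adjusted p-values under 0.05. Default eBayes called 12367 genes. A mean-variance trend, robust eBayes and both together were run after seeing the data and called 12220, 12355 and 12349. Spread came from edgeR on rounded expected counts with TMM and filterByExpr, and DESeq2 size factors were an alternative. The fits were tested on simulated data.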

Additional observations from a re-analysis of the deposited data

How the results depend on the processing

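Pseudocounts of 1 and 0.01, the second table, a floor of 5 TPM, other filters, 3 other eBayes settings and leaving out each replicate were tried, the eBayes settings after seeing the data. Of 226 values recomputed, 216 kept their direction and their side of the threshold, moved by less than 1 SD, or, for counts and coefficients of variation, stayed within 1.5 times. Within that limit, the count of Ifit genes that passed was 4 to 6. That of pathway genes was 50 to 58 and that of eIF3 subunits 9 to 14, with the lowest pathway and eIF3 counts at a floor of 5 TPM. The highest counts were in the second table, where 57.5% of all genes tested passed, against 51.1% in the main fit. The shares of all genes at a floor of 5 TPM and with every annotated gene tested are not given here. The Ifit1bl1-202 share of 65.9% also counted as kept, because its SD was 36.5. It was 86.5% without replicate 1 and 52% without replicate 3. Under the 3 eBayes settings 5 Ifit genes and 57 pathway genes passed, as in the default fit. Ifit1bl2 turned to 0.54 log2 units above the floor in the second table, and the cause was not tested. Ifit1bl1 missed the threshold at a floor of 5 TPM (limma adjusted p = 0.123) and when every annotated gene was tested (limma adjusted p = 0.0781). Without length correction, in CPM, Ifit2 exceeded Ifit3 by 1.62 log2 units in place of 0.37. No paired analysis was possible because there is 1 group. The 3 libraries limit these values.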
